A study of Mus musculus with 2 samples.

Results

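The interferon-stimulated gene module is a fixed list of 44 genes that cells switch on after sensing interferon, and its members were found by gene symbol in 2 single-cell RNA sequencing samples of mouse brain. Mx2 had no row in the gene lists, which left 43 members of 31053 genes. Both samples pool wild-type (WT) and STING-KO mice, which lack the adaptor that links cytosolic DNA sensing to interferon genes. The sorted brain sample is FACS-sorted cells from male mice of 3 and 12 months. The total brain sample is unsorted cells from male and female mice of 2 and 24 months by its title, although its age label gives the older mice as 240 months. In each sample 2 mice were grouped per genotype and age, so each sample is 1 pool and no test between samples was possible. Each matrix holds 4 barcode suffixes, and the sources used here tie no suffix to a genotype or an age. Suffix values are therefore shown as a spread within a pool, not as replicates of a condition.

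Interferons act in 2 main branches. Type I interferons bind a receptor made of IFNAR1 and IFNAR2, which acts through the kinases JAK1 and TYK2 and assembles a complex with STAT2 and IRF9 on response elements beside target genes. Interferon gamma binds IFNGR1 and IFNGR2, acts through JAK1 and JAK2, and leads to a different element. The targets include RNA sensors and binders (the OAS and IFIT families), the ubiquitin-like modifier ISG15 with its enzymes, and GTPases that attack vacuoles of intracellular pathogens (the GBP and IRG families). In the brain, microglia, border macrophages and the cells of the vessel wall and choroid plexus are known responders, and neurons are known to hold these genes at low levels.

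Start site sequences were examined first, because the type I element is short enough to be read directly. RefSeq windows (GRCm38.p6, 250 bases before to 50 after the start) were matched for 33 of the 44 listed genes. These had 38 windows, and a gene was counted when any of its windows held the motif. GAAANNGAAA, the core of the type I response element, was present on either strand for 15 of these 33 genes (45.5%). It was present for 3.99% of 27025 genes with windows of the same length. The 15 were Gbp2, Gbp3, Gbp7, Ifit1, Ifit3, Ifit3b, Igtp, Irgm1, Isg15, Oas1a, Oas3, Rsad2, Slfn5, Slfn8 and Trim30a. TTCNNNGAA, the core of the interferon gamma element, was present for 5 genes (15.2%), against 9.55% of all, and these were Gbp7, Ifi35, Ifit2, Igtp and Oas1a. A match is a description of letters, not a measured binding site. The stretches below belong to members on which the later comparisons turn, are written 5′ to 3′ on the gene's strand, and carry GAAANNGAAA or its reverse complement in capitals.
Isg15, chr4:156200855-156200916, minus strand: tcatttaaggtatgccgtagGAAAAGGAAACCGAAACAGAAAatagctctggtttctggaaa
Ifit1, chr19:34640765-34640833, plus strand: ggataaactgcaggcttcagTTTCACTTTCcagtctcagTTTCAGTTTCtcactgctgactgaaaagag
Ifit3, chr19:34583353-34583436, plus strand: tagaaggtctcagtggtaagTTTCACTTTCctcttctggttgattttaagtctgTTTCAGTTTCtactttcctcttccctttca
Ifit3b, chr19:34607749-34607832, plus strand: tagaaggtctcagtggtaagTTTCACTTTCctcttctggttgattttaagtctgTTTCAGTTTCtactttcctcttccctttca
Rsad2, chr12:26456543-26456592, minus strand: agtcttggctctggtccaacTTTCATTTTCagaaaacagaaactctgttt
Gbp7, chr3:142530263-142530312, plus strand: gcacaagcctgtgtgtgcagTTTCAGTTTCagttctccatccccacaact
Slfn8, chr11:83020829-83020878, minus strand: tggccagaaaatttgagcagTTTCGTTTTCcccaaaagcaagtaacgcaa

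The Isg15 stretch holds 3 overlapping matches that run together between 57 and 78 bases before the start. Ifit1 holds 2 separate matches, between 76 and 104 bases before its start. The Ifit3 and Ifit3b stretches are identical in 84 of 84 bases. These nearby genes are near copies, and how the authors' counting treated reads that fit both was not examined. Gbp7 and Slfn8 carry a single match each, 44 to 53 and 39 to 48 bases before the start, and are shown because they went opposite ways between vessel cells and microglia. Members also sit in chromosomal clusters in the GENCODE M21 annotation of GRCm38. Ifit2 (chr19:34550694-34576419), Ifit3 (chr19:34583531-34588731), Ifit3b (chr19:34607970-34613401) and Ifit1 (chr19:34640871-34650009) lie in this order on the plus strand. Ifi27 (chr12:103434211-103440239, plus strand) and Ifi27l2a (chr12:103442167-103443680, minus strand) also lie close together, yet they marked different cells in these data. Chromosome 11 holds 10 of the 43 members, including Slfn5, Slfn8 and Slfn2.

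The matrices hold 36822467 unique molecular identifiers (UMIs) in 13499 barcodes for sorted brain and 48226525 in 14674 for total brain. After barcodes with fewer than 500 genes or over 10% mitochondrial UMIs were removed, 10076 and 9367 cells remained. Cells were clustered without the members and named from marker genes, and a class was used where it had at least 100 cells in a sample, which gave 18 class and sample pairs. Levels are UMIs of a gene per 1000000 UMIs of the class (CPM), with exact Poisson intervals at 95% that cover counting error only. They come from the 3′ ends of transcripts and do not scale with gene length. Several facts about the classes bear on the values below. The monocyte-like cells were led by Prss34, Plac8 and Mcpt8, of which Prss34 and Mcpt8 are basophil genes. The cells named microglia-like in sorted brain include a cluster of 2103 cells led by the cytokine genes Ccl4 and Tnf. Endothelial-like cells of sorted brain carried choroid plexus markers at a summed 70911 CPM, and those of total brain carried erythroid markers at 27110 CPM. For Tmem173, the STING gene, the microglia-like level over suffixes 1 to 4 was 321, 2.87, 23.4 and 235.9 CPM in sorted brain and 2.60, 212.4, 295.5 and 5.46 CPM in total brain. Within a matrix, suffixes shared 85 barcodes in sorted and 23 in total brain, and 5 were shared between the samples.

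Summed over the 43 members, the module was highest in endothelial-like cells of total brain and lowest in neuron-like cells of the same sample. The endothelial-like level was 3530 CPM (3483 to 3577; 753 cells), and the neuron-like level was 173 CPM (165.3 to 181; 5389 cells). Monocyte-like cells (3220 CPM), border macrophage-like cells (3079 CPM), T cell-like cells (2896 CPM) and endothelial-like cells of sorted brain (2895 CPM) followed. Microglia-like cells were at 1097 CPM in sorted brain (1076 to 1119; 4420 cells) and 1348 CPM in total brain (1308 to 1388; 575 cells). Astrocyte-like, oligodendrocyte precursor-like and oligodendrocyte-like cells lay between 345.2 and 592.9 CPM. The sum hides unlike makeups. Ifi27l2a alone gave 39.5% of the module's UMIs in monocyte-like cells and 26.4% in border macrophage-like cells. Ifi27 gave 81.4% in choroid plexus epithelial-like cells of sorted brain and 68.8% in those of total brain, and without it their sums were 213.1 and 683.3 CPM. In endothelial-like cells of total brain the largest single share was Slfn5, at 12.7%, and in neuron-like cells it was Herc6, at 18.2%.

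**Figure D1:**
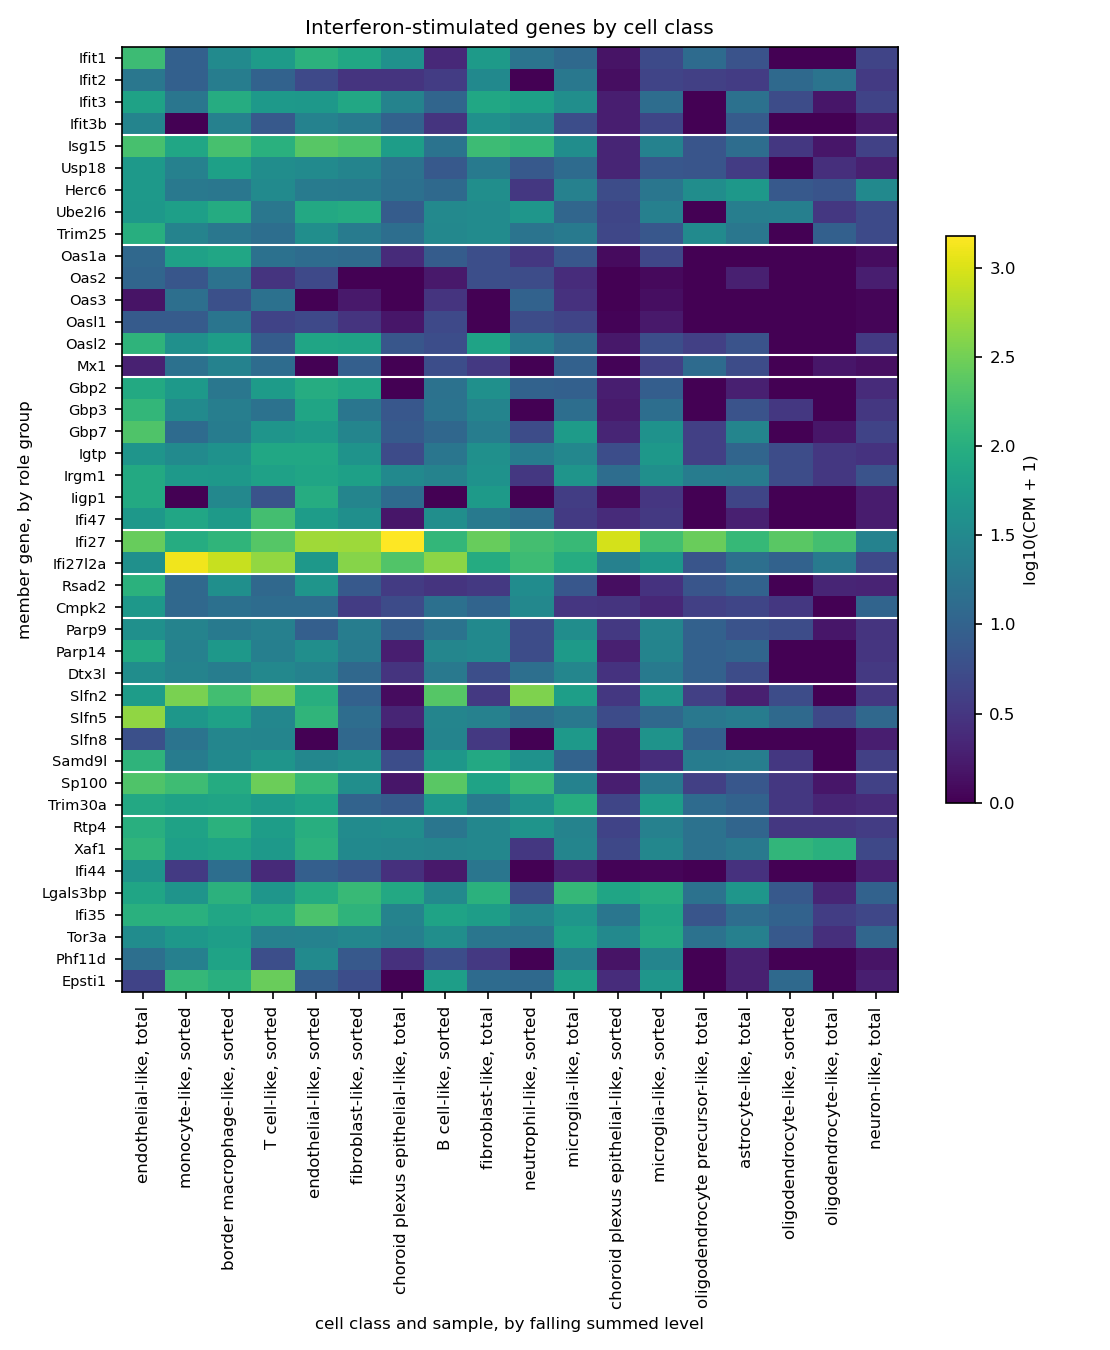
Level of each of the 43 members (rows, in role groups divided by white lines) in 18 class and sample pairs (columns, ordered by falling summed level), as log10 of CPM plus 1. Ifi27 is bright in every column with its peak in choroid plexus epithelial-like cells, while most other rows are bright toward the left and dark in the glial and neuronal columns at the right.

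Few members were present everywhere. A gene was counted as broad when it reached 20 CPM in at least 75% of the 18 pairs and as restricted when it did so in 1 or 2 pairs. By these rules 1 member was broad and 5 were restricted, against 24.5% broad and 21.5% restricted among all genes that reached 20 CPM in at least 1 pair. The broad member was Ifi27, a small mitochondrial protein gene, which reached 20 CPM in 18 of 18 pairs, from 24.6 CPM in neuron-like cells to 1509 CPM in choroid plexus epithelial-like cells of total brain (median 193 CPM). Xaf1, Lgals3bp and Ifi27l2a each reached 20 CPM in 13 pairs, just under the rule for broad. The restricted members were Ifit2, Oas1a, Mx1, Cmpk2 and Ifi44. Ifit2 passed in fibroblast-like cells of total brain (31.1 CPM) and border macrophage-like cells (21.3 CPM). Oas1a passed in border macrophage-like (74.4 CPM) and monocyte-like cells (65.4 CPM). Mx1, a dynamin-like antiviral GTPase, passed in border macrophage-like cells alone, at 24.5 CPM. Cmpk2 passed in endothelial-like cells of total brain (48.0 CPM) and neutrophil-like cells (29.5 CPM), and Ifi44 in endothelial-like cells of total brain (43.4 CPM). Oas2, Oas3 and Oasl1 reached 20 CPM in none of the 18 pairs, with highest levels of 14.7, 14.3 and 16.4 CPM. The count of broad members changed with the suffixes included. It was 5 without suffix 4 of total brain and 4 without its suffix 2 or 3. It was 3 without suffix 1 of sorted brain and 2 without its suffix 3 or 4. Leaving out a suffix can also take a class under the cell minimum, which changes the pairs counted. Of the 117 oligodendrocyte-like cells of total brain, suffixes 2, 3 and 4 held 31, 40 and 35. These counts therefore do not separate a change in level from the loss of a class.

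Members of 1 family were often highest in different named classes: among the IFIT genes, Ifit1 was highest in endothelial-like, Ifit3 in border macrophage-like, and Ifit2 and Ifit3b in fibroblast-like cells of total brain (13 and 16 UMIs). For Ifit2, Ifit3 and Ifit3b the interval of the highest class overlapped that of the next, so these orders were not separable. Isg15, the ubiquitin-like modifier, was at 223 CPM in endothelial-like cells of sorted brain (168.0 to 290.3), 186.6 CPM in fibroblast-like cells of sorted brain, 180.9 CPM in endothelial-like cells of total brain (170.5 to 191.8) and 176.7 CPM in border macrophage-like cells (153.9 to 201.9). The intervals given for Isg15 in the endothelial-like and border macrophage-like cells overlap, so these levels were not separable. Neutrophil-like cells were at 127 CPM of Isg15, T cell-like cells at 104.3 CPM and monocyte-like cells at 75.03 CPM. Isg15 was lower in microglia-like cells, at 24.4 CPM in sorted and 35.04 CPM in total brain, and lower again in neuron-like cells, at 3.12 CPM. At full depth, Isg15 had at least 1 UMI in 41.7% of endothelial-like cells of total brain. The share was 3.73% in microglia-like cells of sorted brain and 0.575% in neuron-like cells. Median UMIs per cell were 4771, 2029 and 1445 in these classes, so depth bears on the shares. With cells thinned to 1000 UMIs, 77 of 670, 86 of 4173 and 13 of 3754 cells had an Isg15 UMI. Ifit1, which binds foreign capped RNA, was highest in endothelial-like cells of total brain (152 CPM) and next in those of sorted brain (109.5 CPM). Ifit1 was at 53.8 CPM in T cell-like cells and at 0 UMIs in both sets of oligodendrocyte-like cells, which allows up to 8.27 CPM in sorted and 2.07 CPM in total brain.

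Slfn5, a member of the Schlafen family of growth and antiviral regulators, had the highest level of the 43 members in endothelial-like cells of total brain. It was at 449.9 CPM in endothelial-like cells of total brain (433.4 to 466.9) and 117.6 CPM in those of sorted brain, and Slfn5 was at 65.4 CPM in the next class, border macrophage-like cells. It had a UMI in 70.4% of endothelial-like cells of total brain. Slfn8, which like Slfn5 lies on chromosome 11, followed another order. Slfn8 was highest in microglia-like cells, with 50.05 CPM in total and 41.6 CPM in sorted brain, and endothelial-like cells of total brain held 4.98 CPM. Slfn2 was highest in neutrophil-like cells (360.5 CPM), followed by monocyte-like cells (341.3 CPM) and T cell-like cells (312.1 CPM). Among the GTPases, Gbp7 was at 200.4 CPM in endothelial-like cells of total brain and 54.7 CPM in microglia-like cells of that sample. Rsad2, which encodes the antiviral enzyme viperin, was at 106.2 CPM in endothelial-like cells of total brain, 44.6 CPM in those of sorted brain and 37.6 CPM in border macrophage-like cells.

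Sp100, a nuclear body protein gene, was led by T cell-like cells at 286.9 CPM, ahead of B cell-like cells at 229.6 CPM, endothelial-like cells of total brain at 197.5 CPM and monocyte-like cells at 153.7 CPM. Epsti1 was also led by T cell-like cells, at 283.5 CPM, with monocyte-like cells at 130.7 CPM and border macrophage-like cells at 99.8 CPM. In total brain Epsti1 had 63.8 CPM in microglia-like but 3.37 CPM in endothelial-like cells. Oasl2, an oligoadenylate synthetase-like gene, peaked in endothelial-like cells of total brain at 117.3 CPM. Parp14, a mono-ADP-ribosyltransferase gene, also peaked there, at 84.5 CPM. Xaf1, an antagonist of the apoptosis inhibitor XIAP, was highest in oligodendrocyte-like cells, at 121.1 CPM in sorted and 102.0 CPM in total brain, with endothelial-like cells of total brain at 120.5 CPM (112.0 to 129.4). Its intervals in oligodendrocyte-like cells (90.9 to 158.0 in sorted and 87.7 to 117.9 in total brain) overlap the endothelial one, so their order was not resolved. Xaf1 had a UMI in 66.7% of the oligodendrocyte-like cells of total brain, a class in which the summed module was among the lowest. These cells had a median of 13749 UMIs, and a share of cells with a UMI rises with depth.

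Free RNA from lysed cells can place UMIs in droplets of any class, so Ifi27 and Ube2l6 were set against marker RNA of their richest source. Scaling by choroid plexus markers, choroid plexus RNA could give 30.7% of the Ifi27 in endothelial-like cells of sorted brain, 12.4% in microglia-like cells of sorted brain and 32.2% in neuron-like cells. It could give 0.853% of the Ifi27 in endothelial-like cells of total brain. Ube2l6, the E2 enzyme of the ISG15 system, was at 457.9 CPM in 28 erythroid-like cells of total brain. Erythroid RNA could give 30.9% of the Ube2l6 in endothelial-like cells of total brain and 167% of that in oligodendrocyte-like cells of total brain. Ube2l6 was at 2.24 CPM in the latter, and the part of free RNA in these values was not tested.

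Classes were compared by a fixed rule: at least 2-fold with 1 CPM added to both levels, ranges over suffixes with at least 30 cells that do not overlap, and at least 10 UMIs over both sides. Fold values in the text are plain ratios of CPM with exact 95% intervals from the UMI counts. In sorted brain, border macrophage-like cells (383 cells) exceeded microglia-like cells for 23 of 42 tested members (54.8%), and 0 were lower. The same rule passed 5.4% of all tested genes as higher and 16% as lower. The median log2 ratio was 2.01 over the members and −0.40 over all tested genes, and 36 of 42 members had a ratio above 1. All 4 IFIT genes, 4 of 5 genes of the ISG15 system and 3 of 4 Schlafen and SAMD9L genes were higher, but 1 of 7 GTPases and 0 of 3 PARP and DTX3L genes.

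Ifi47, an IRG GTPase gene, was at 53.2 CPM in border macrophage-like against 2.35 CPM in microglia-like cells (22.6-fold). Samd9l was 20.8-fold higher, at 31.1 against 1.498 CPM. Rsad2 was 19.5-fold higher (11.1 to 35.8), at 37.6 against 1.93 CPM. Ifi27l2a had the largest difference in level, at 813 against 47.5 CPM (17.1-fold, 15.3 to 19.2). By suffix Ifi27l2a was at 780.7, 462.1, 681.3 and 1188 CPM in border macrophage-like cells and at 52.8, 10.6, 88.8 and 111.5 CPM in microglia-like cells, so each border value lay above each microglial one. Usp18, the protease that removes ISG15 and damps the type I receptor, was 10.2-fold higher (7.13 to 14.5), at 63.0 against 6.20 CPM. Usp18 in border macrophage-like cells was at 53.8, 56.4, 52.7 and 82.8 CPM over the suffixes. Isg15 was 7.24-fold higher (5.99 to 8.76; 216 against 228 UMIs). Its suffix values in border macrophage-like cells were 151.4, 157.8, 140.5 and 237.6 CPM, and in microglia-like cells they were 19.8, 16.9, 40.2 and 50.8 CPM for Isg15, with no overlap. Ifit3 was 7.45-fold higher (5.71 to 9.73). Ifi44 and Oas2 also passed, on 16 against 1 and 18 against 2 UMIs. Rsad2 did not pass with a looser cell filter (log2 3.92), nor Usp18 with a stricter one (log2 3.43).

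Monocyte-like cells (236 cells, 3 suffixes) exceeded microglia-like cells for 19 of 41 tested members (46.3%) and were lower for 4 (9.76%), against 9.74% and 21.8% of all tested genes. The median log2 ratio was 1.26 for members and −0.26 for all. All 4 tested OAS genes were higher, with Oas1a at 65.4 against 3.74 CPM (17.5-fold, 11.2 to 27.5), while 0 of 4 IFIT genes were higher. Ifi27l2a was at 1271 against 47.5 CPM (26.8-fold, 23.9 to 29.96), with suffix values of 1364, 1024 and 1899 CPM for suffixes 1, 3 and 4. Ifi47 was at 75.03 against 2.35 CPM (31.9-fold, 19.3 to 54.5). Sp100 was 8.76-fold and Slfn2 7.84-fold higher. Gbp7 was lower, at 12.1 against 41.2 CPM, which is 3.40-fold lower (1.83 to 7.15). Lgals3bp, a secreted galectin-binding protein gene, was 2.15-fold lower (1.54 to 3.09). Iigp1 and Ifit3b also passed as lower, but both had 0 UMIs in monocyte-like cells, where 3 counts would give a level above that of microglia-like cells, so no fold is given. Without the cytokine-led microglia-like cluster, 1 member was lower.

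T cell-like cells (606 cells) exceeded microglia-like cells for 9 of 41 tested members (22%) and were lower for 3 (7.32%), against 9.06% and 24.3% of all tested genes. The members' median log2 ratio was 1.04 and that of all tested genes −0.30. Ifi47 had the largest fold among the higher members, at 169.7 against 2.35 CPM (72.1-fold, 46.6 to 117.1), with suffix values of Ifi47 in T cell-like cells of 218.1, 157.8, 151.9 and 155.7 CPM. Sp100 was 16.4-fold higher (13.6 to 19.7) and Epsti1 6.22-fold higher, at 283.5 against 45.6 CPM. Oas3 passed on 21 against 3 UMIs, and in the same comparison Ifit1 was 12.9-fold higher. Of the ISG15 system 0 of 5 members passed. Isg15 itself ranged from 14.8 to 158.1 CPM over the T cell-like suffixes, with 65.2 CPM in suffix 1, 14.8 in suffix 2, 124.3 in suffix 3 and 158.1 in suffix 4, and so overlapped the microglial range. Phf11d was 5.63-fold lower (2.69 to 14.1), Tor3a 3.43-fold lower (2.44 to 4.96) and Lgals3bp 2.02-fold lower. The count depended on 1 suffix: without suffix 2 of sorted brain, 17 members were higher. The count lower was 1 without the cytokine-led microglia-like cluster.

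Choroid plexus epithelial-like cells of sorted brain (2505 cells) went the other way. Against microglia-like cells, 28 of 39 tested members (71.8%) were lower and 1 (2.56%) was higher, where all tested genes gave 39.1% lower and 17.6% higher. The median log2 ratio was −1.95 for members and −0.70 for all. The 1 higher member was Ifi27, at 933.8 against 164.1 CPM (5.69-fold, 5.396 to 6.005). Its suffix values in choroid plexus epithelial-like cells were close together, at 875.9, 896.3, 918.4 and 1114 CPM for Ifi27. Slfn8 was 61.1-fold lower (31.8 to 134.6), Gbp7 36.3-fold lower (21.7 to 65.4) and Epsti1 30.1-fold lower (19.2 to 49.8). Isg15 was at 1.14 against 24.4 CPM (15 against 228 UMIs), 21.5-fold lower (12.8 to 39.0). All 3 PARP and DTX3L genes and 6 of 7 GTPases were lower. Without the cytokine-led microglia-like cluster, 21 members were lower.

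**Figure D2:**
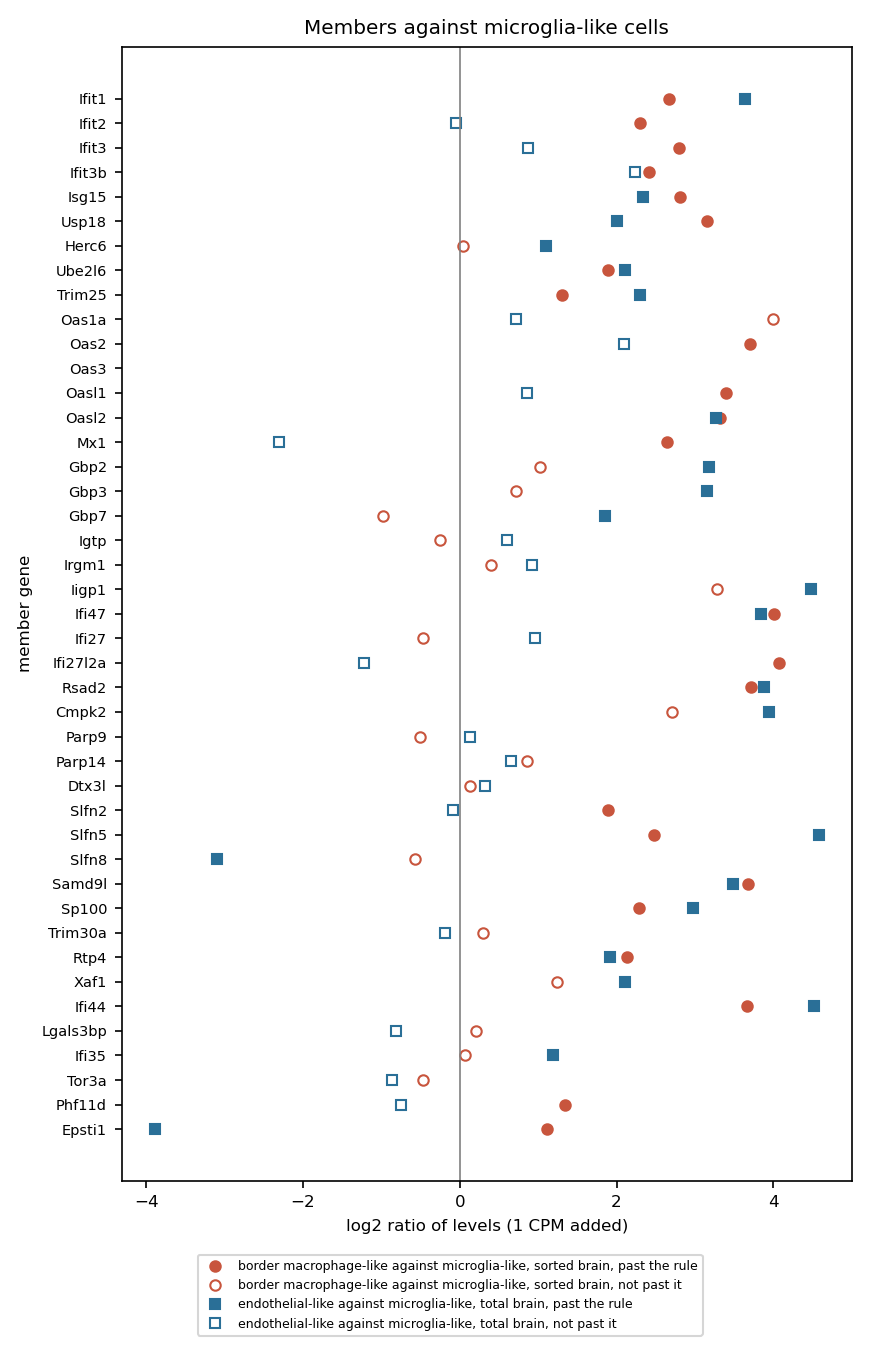
Log2 ratio of levels (1 CPM added; horizontal) of each tested member (vertical) against microglia-like cells of the same sample, for border macrophage-like cells of sorted brain (circles) and endothelial-like cells of total brain (squares). Filled marks passed the rule: 23 circles, which are all at positive ratios, and 21 squares at positive and 2 at negative ratios, the latter being Slfn8 and Epsti1.

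In total brain, endothelial-like cells exceeded neuron-like cells for 37 of 42 tested members (88.1%) and 0 were lower, against 17.2% and 36.8% of all tested genes. The median log2 ratio was 4.08 for members and −0.62 for all, and 42 of 42 members had a ratio above 1. All 7 GTPases, 4 of 4 tested OAS genes and 3 of 3 PARP and DTX3L genes were higher. Rsad2 was at 106.2 against 1.10 CPM (96.6-fold). Gbp7 was at 200.4 against 3.39 CPM (59.1-fold, 42.6 to 84.3; 1247 against 37 UMIs). Isg15 was at 180.9 against 3.12 CPM (58.1-fold, 41.3 to 84.3), and Slfn5 at 449.9 against 10.8 CPM (41.6-fold, 34.6 to 50.5). Over the suffixes Slfn5 was at 357, 534.9, 455.5 and 447.7 CPM in endothelial-like cells and at 4.84, 12.1, 13.9 and 8.41 CPM in neuron-like cells. The 2 groups of values are far apart, and the spread within each is small beside the gap.

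Endothelial-like cells also stood above microglia-like cells of total brain for 21 of 42 tested members (50%) and below them for 2 (4.76%). Of all tested genes, 18.3% were higher and 12% lower. The members' median log2 ratio was 1.52, against 0.24 for all tested genes. All 5 genes of the ISG15 system, 5 of 7 GTPases and both of the enzyme genes Rsad2 and Cmpk2 were higher, but 1 of 4 IFIT genes and 1 of 4 OAS genes. Slfn5 was 25.2-fold higher (19.4 to 33.4). Iigp1 was at 84.2 against 2.82 CPM (29.9-fold, 15.6 to 65.8), and by suffix Iigp1 was at 56.0, 84.3, 104.8 and 64.4 CPM in endothelial-like cells. Rsad2 was 17.0-fold (10.9 to 28.0) and Ifit1 13.5-fold higher (9.68 to 19.4). Isg15 was 5.16-fold higher (4.25 to 6.33). Ifi44 passed on 270 against 3 UMIs. The 2 lower members were Epsti1, 18.9-fold lower (12.1 to 31.2), and Slfn8, 10.1-fold lower (6.81 to 15.3). Slfn8 was at 6.404, 0, 7.90 and 1.87 CPM over the endothelial-like suffixes and at 33.8, 51.3, 62.2 and 50.2 CPM over the microglia-like ones. Markers of other cells in endothelial-like cells were at a summed 657.6 CPM for microglia, 19.8 CPM for border macrophages, 10.6 CPM for monocytes and 1917 CPM for mural cells, beside 17210 CPM for endothelium, and their part in these ratios was not tested. With a looser cell filter 13 members were higher, and with each sample clustered alone Epsti1 was no longer past the rule (log2 −1.47).

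Between the samples, few members passed the rule in microglia-like cells, and different clusters hold most of them in each sample. The sorted cells lie in clusters 2 (2103 cells) and 3 (2314), with 3 cells in cluster 22, while the total brain cells lie in cluster 22 (433 of 575), with 136 in cluster 3 and 6 in cluster 2. Of 40 tested members, 2 (5%) were higher in total brain and 0 were lower, against 17.5% and 2.68% of all tested genes. These were Samd9l, at 9.39 against 1.498 CPM (6.27-fold, 3.22 to 12.8), and Trim25, a ubiquitin ligase of RNA sensing, at 18.8 against 6.31 CPM (2.97-fold, 2.04 to 4.33). Neither passed with 10 CPM added or with each sample clustered alone, and Samd9l did not with a looser or stricter cell filter. Without suffix 2 of total brain, 2 members were lower. The median log2 ratio was 0.47 for members and 0.20 for all tested genes. Sorting, sex, age and the software version differ between the samples too, and the library chemistry may, and these cannot be told apart.

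The genes of the interferon pathway itself were compared as a list of 22 (interferons, their receptor chains, the JAK kinases, Stat2, IRFs and SOCS genes). Of the 14 tested in border macrophage-like against microglia-like cells, 2 were higher and 2 lower (14.3% each, against 5.4% and 16% of all tested genes). Irf7, which amplifies the type I response, was higher at 144.8 CPM (15.04-fold, 11.6 to 19.6), as was Jak2 (2.91-fold). Ifngr1, a chain of the interferon gamma receptor, was 3.04-fold lower and Socs3, a feedback inhibitor, 2.31-fold lower. Monocyte-like cells gave 1 higher (7.14%, against 9.74% of all tested genes) and 2 lower of 14 (14.3%, against 21.8%), with Irf7 at 130.7 against 9.63 CPM (13.6-fold, 10.2 to 18.2), and with Socs3 6.29-fold lower and Ifngr1 2.25-fold lower. T cell-like cells gave 4 higher and 4 lower of 15 (26.7% each, against 9.06% and 24.3%). The pathway shares lower in border macrophage-like, monocyte-like and T cell-like cells were thus near or under those of all genes.

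The T cell-like list included the 1 interferon gene with more than a few UMIs. Ifng was at 98.1 CPM (144 UMIs, 82.8 to 115.5) and was present in 14.5% of T cell-like cells, against 6 UMIs in microglia-like cells. An unnamed cluster led by Gzma and Ncr1, which are natural killer cell genes, had Ifng at 136 CPM and a summed module of 2594 CPM. Ifnb1, the beta interferon gene, had 2 UMIs in microglia-like cells of sorted brain, and Ifna1, Ifna2, Ifna4, Ifna5 and Ifne had 0 UMIs in the named classes. The receptor chains Ifngr2 (9.99-fold), Ifnar2 (4.14-fold) and Ifngr1 (3.09-fold) were lower in T cell-like than in microglia-like cells.

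In choroid plexus epithelial-like cells 12 of 14 pathway genes were lower than in microglia-like cells (85.7%, against 39.1% of all tested genes) and 0 were higher (against 17.6%). The lower genes included all 4 receptor chains, with Ifngr1 42.2-fold, Ifngr2 25.2-fold, Ifnar1 13.8-fold and Ifnar2 3.78-fold lower, and Stat2 (10.5-fold). Endothelial-like cells exceeded neuron-like cells in 8 of 14 pathway genes (57.1%, against 17.2%) and were lower in 1, Tyk2 (2.15-fold), which is 7.14% against 36.8%. Irf7 was 30.3-fold (20.4 to 46.9), Ifnar2 12.7-fold and Ifnar1 3.54-fold higher. Against microglia-like cells of total brain, 5 of 14 were higher in endothelial-like cells (35.7%, against 18.3%), with Irf7 at 7.95-fold, Ifnar1 at 3.37-fold and Jak2 at 3.27-fold, and 3 were lower (21.4%, against 12%). The lower ones were Ifngr1 (8.24-fold, at 89.0 against 733.2 CPM), Ifngr2 (6.94-fold) and Socs3 (5.25-fold). The type I chain Ifnar1 was thus higher and both gamma chains lower in endothelial-like than in microglia-like cells. Between the samples, Jak2 was 3.33-fold higher in microglia-like cells of total brain, the 1 of 14 that was higher (7.14%, against 17.5% of all tested genes), and 0 of 14 were lower (against 2.68%).

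The suffixes of a sample differed in the summed module, and did so in several classes at once. In total brain the choroid plexus epithelial-like cells were at 3257, 2585, 1539 and 1176 CPM for suffixes 1 to 4, on 68, 119, 83 and 78 cells. Microglia-like cells were at 1070, 2479, 1298 and 958.7 CPM, on 126, 102, 180 and 167 cells, and endothelial-like cells at 2851, 3838, 3733 and 3372 CPM. Neuron-like cells were at 191.1, 217.7, 178.7 and 149.8 CPM, and astrocyte-like cells at 640.6, 888.6, 576.3 and 410.3 CPM. Of the 6 total brain classes with at least 3 suffixes of 30 cells, suffix 2 was highest in 5 and suffix 1 in 1, and suffix 4 was lowest in 5. The highest suffix's interval lay apart from the next one's in choroid plexus epithelial-like, microglia-like and oligodendrocyte-like cells, and overlapped it in astrocyte-like, endothelial-like and neuron-like cells. In sorted brain suffix 4 was highest in 7 of 8 such classes, with its interval apart from the next in 4 (T cell-like, border macrophage-like, choroid plexus epithelial-like and fibroblast-like cells), and suffix 2 was lowest in 5, apart from the next in 3. Border macrophage-like cells were at 3099, 2228, 2862 and 3834 CPM, fibroblast-like cells at 2332, 1280, 2130 and 3143 CPM, and microglia-like cells at 1128, 869.8, 1419 and 1430 CPM. Anything particular to a suffix bears on all of its classes, so they are not independent counts.

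**Figure D3:**
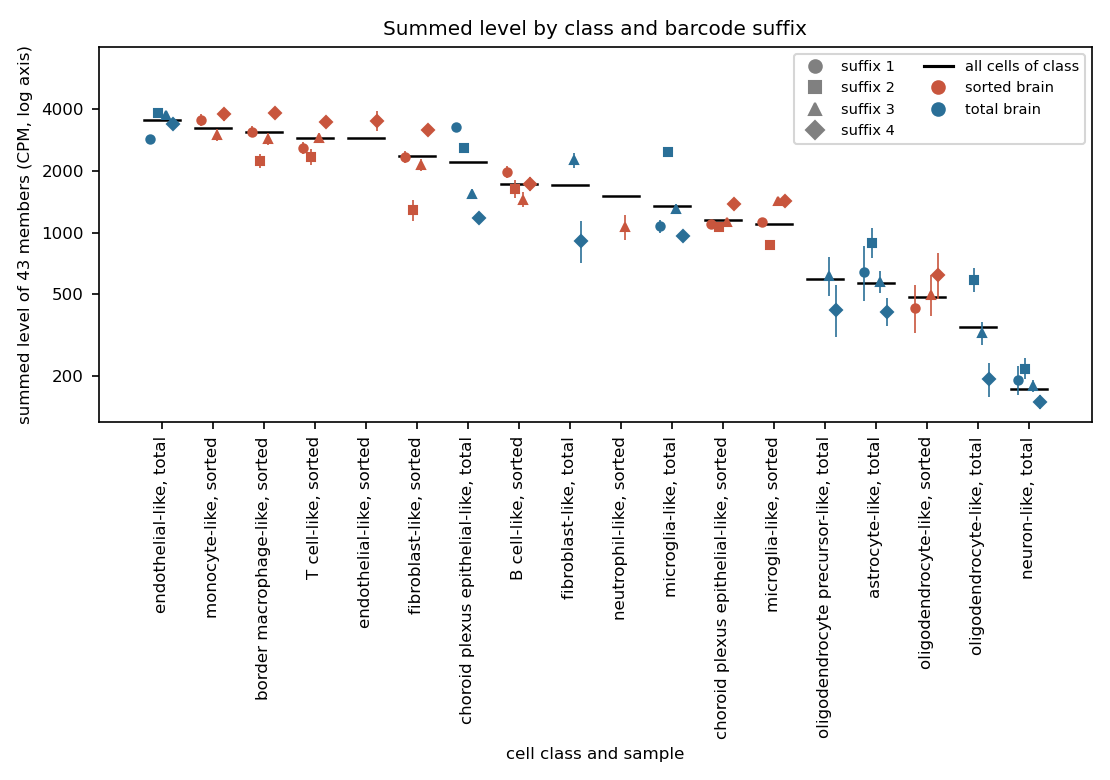
Summed level of the 43 members (CPM, log axis) for each class and sample, with a mark for each barcode suffix of at least 30 cells (error bars, exact Poisson 95%) and a line for all cells of the class. The choroid plexus epithelial-like cells of total brain spread from 1176 to 3257 CPM, while the endothelial-like cells of total brain stay between 2851 and 3838 CPM.

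Gene by gene, the spread was taken as the ratio of the highest suffix to the lowest. It covered the 14 class and sample pairs with at least 3 suffixes and genes at 20 CPM or more. The 20 CPM limit was applied to the class as a whole, so a gene high in only some suffixes could pass through these. In choroid plexus epithelial-like cells of total brain, 13, 11, 3 and 5 members reached 20 CPM in suffixes 1 to 4. In microglia-like cells of total brain, 15, 33, 20 and 17 did. The ratios and shares below are thus partly set by this limit, for members and for all genes. The members' median ratio was highest in the choroid plexus epithelial-like cells of total brain, at 8.68 against 1.46 for all genes, and 8 of 11 members there (72.7%) were at least 2-fold apart, against 13.8% of all genes. In microglia-like cells of total brain this held for 12 of 22 members (54.5%, against 21.7%), with median ratios of 2.08 and 1.61. In microglia-like cells of sorted brain it held for 8 of 19 (42.1%, against 6.77%), with 1.64 and 1.32. In endothelial-like cells of total brain it held for 7 of 34 (20.6%, against 12.6%), and the median ratios were 1.5 for members and 1.44 for all genes. Classes with a wide spread over all genes also had high shares of members. Astrocyte-like cells of total brain gave 7 of 8 members (87.5%, against 62.3%), and fibroblast-like cells of sorted brain 17 of 24 (70.8%, against 33.2%), with median ratios of 3.08 for members and 1.69 for all genes. Of the other sorted brain classes, B cell-like cells gave 12 of 18 (66.7%, against 34.3%), border macrophage-like cells 19 of 34 (55.9%, against 37.2%) and T cell-like cells 15 of 27 (55.6%, against 36.3%). Monocyte-like cells fell under their background, with 8 of 28 (28.6%, against 35%). Few members were at 20 CPM in the remaining pairs. Oligodendrocyte-like cells gave 2 of 3 in sorted brain (against 43.1% of all genes) and 2 of 2 in total brain (against 13.4%), choroid plexus epithelial-like cells of sorted brain 1 of 4 (against 4.01%) and neuron-like cells 0 of 2 (against 3.43%).

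In the choroid plexus epithelial-like cells of total brain, Isg15 was at 153.2, 64.1, 1.24 and 0 CPM over suffixes 1 to 4. Ifit1 followed at 112.3, 38.8, 0 and 0 CPM (96, 40, 0 and 0 UMIs), and Ifit3 at 77.2, 19.4, 0 and 1.30 CPM. Suffixes 1 and 2 were high and suffixes 3 and 4 at or near 0 for these members. Rtp4, a chaperone-like gene that interferon raises, was at 60.8, 65.1, 1.24 and 1.30 CPM. Ifi27l2a was at 416.3, 292.2, 38.3 and 20.7 CPM, and Ifi27 at 1949, 1683, 1330 and 978.8 CPM. Ifi27 was thus high in all 4 suffixes, and its highest value was about 2-fold its lowest, a far smaller spread than those of Isg15 and Ifit1. Usp18, Xaf1 and Iigp1 followed the order of Isg15 with suffixes 1 and 2 above 3 and 4, with Xaf1 at 51.5, 42.7, 9.88 and 5.18 CPM. Tor3a was not ordered in this way, at 18.7, 30.1, 14.8 and 24.6 CPM, nor was Herc6, at 16.4, 15.53, 9.88 and 12.95 CPM. Sp100 was near 0 throughout (0, 0, 1.24 and 1.30 CPM), although it was among the leading members in endothelial-like cells. Of the 43 members, 7, 8, 16 and 19 had 0 UMIs in suffixes 1 to 4.

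Markers of other cells were summed in the same suffixes. The 8 endothelial markers summed to 36.2, 49.5, 119.8 and 81.6 CPM in the choroid plexus epithelial-like cells of suffixes 1 to 4, and the microglia markers to 44.4, 54.4, 76.6 and 50.5 CPM, so both were lower in suffixes 1 and 2 than in suffix 3. The neutrophil markers summed to 3.51, 0.971, 0 and 0 CPM (3, 1, 0 and 0 UMIs), the same order as Isg15. All 7 border macrophage markers, 7 monocyte markers and 8 T cell markers were at 0 in suffixes 1 and 2. Ependymal markers were at 405.8, 321.4, 397.7 and 385.8 CPM and choroid plexus markers at 264624, 262357, 223444 and 293383 CPM, and the part of any of these in the result was not tested. In sorted brain the choroid plexus epithelial-like cells held Isg15 at 0.445, 0.621, 1.61 and 2.52 CPM, below the levels in suffixes 1 and 2 of total brain in each of the 4 suffixes. Different clusters hold most of this class in each sample, with 2392 of the sorted cells in cluster 0 and 113 in cluster 1, and 76 of the total brain cells in cluster 0 and 272 in cluster 1.

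In the microglia-like cells of total brain, suffix 2 stood apart. Isg15 was at 5.19, 133.7, 32.1 and 4.37 CPM, Ifit3 at 2.60, 141, 34.2 and 3.28 CPM, and Ifit1 at 2.60, 38.5, 12.4 and 1.09 CPM. Rsad2 was at 0, 31.1, 2.07 and 1.09 CPM, and Ifi27l2a at 101.3, 303.9, 22.8 and 28.4 CPM. Suffix 2 was the highest for each of these. Slfn8, Ifi27, Epsti1 and Tor3a stayed within about 2-fold, with Slfn8 at 33.8, 51.3, 62.2 and 50.2 CPM and Ifi27 at 148, 164.8, 138.9 and 116.8 CPM. Gbp7 ran in another order, at 20.8, 45.8, 60.1 and 83.0 CPM. The suffix 2 cells also held the highest monocyte markers, a summed 64.1 CPM against 5.46 to 9.33 CPM in the others, with Ly6c2, Plac8 and Chil3 at 0, and T cell markers at 18.3 CPM against 2.18 to 3.11 CPM, and their part in the result was not tested.

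In the microglia-like cells of sorted brain the spread was smaller. Isg15 was at 19.8, 16.9, 40.2 and 50.8 CPM, and Rtp4 at 27.0, 8.88, 40.2 and 44.8 CPM, with suffixes 3 and 4 above 1 and 2. Lgals3bp was at 110.4, 57.3, 125.2 and 123.4 CPM. Gbp7 was level at 42.0, 40.7, 39.3 and 41.8 CPM, and Slfn8 was highest in suffix 2, at 29.9, 63.3, 30.8 and 21.9 CPM. In endothelial-like cells of total brain every suffix was high. Isg15 was at 144.1, 307.7, 184.1 and 155 CPM, Ifit1 at 128.1, 168.5, 168.7 and 132.1 CPM, and Gbp7 at 145.7, 174, 212.3 and 206.8 CPM. For Isg15, the lowest endothelial-like suffix was above the highest microglia-like suffix of that sample.

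**Figure D4:**
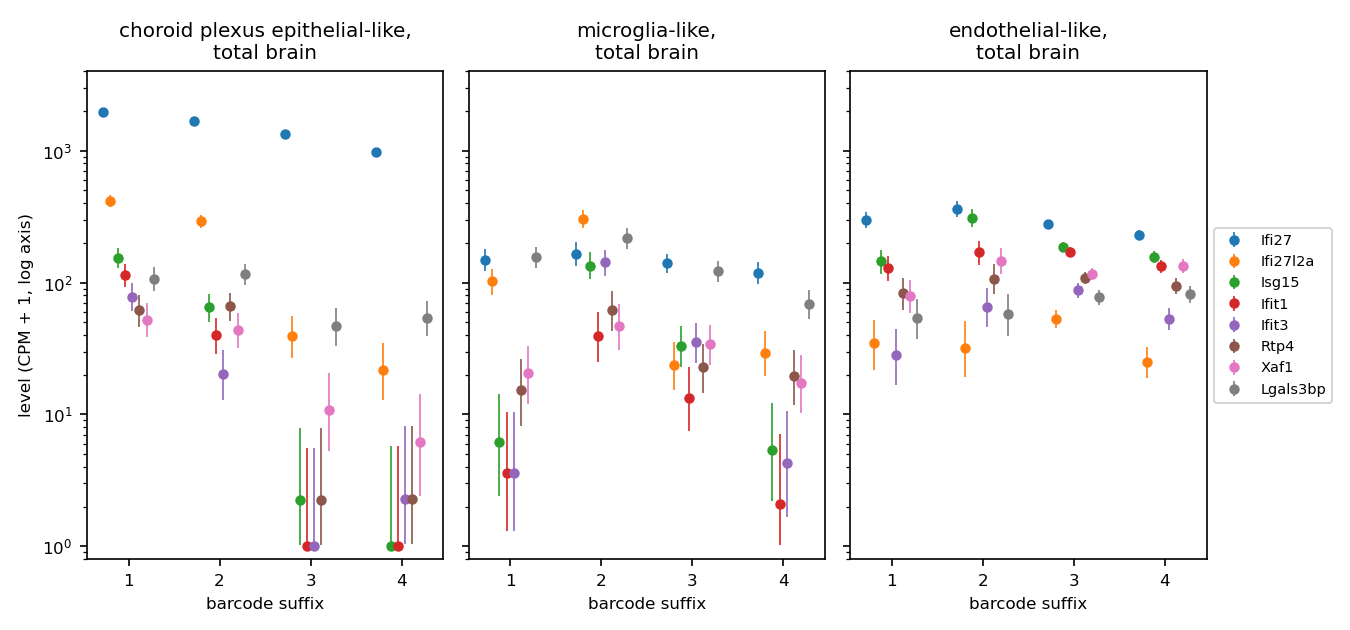
Level of 8 members (CPM plus 1, log axis) by barcode suffix in choroid plexus epithelial-like, microglia-like and endothelial-like cells of total brain, with exact Poisson 95% error bars. Isg15 falls from 153.2 to 0 CPM over suffixes 1 to 4 in choroid plexus epithelial-like cells and peaks at 133.7 CPM in suffix 2 in microglia-like cells, but stays between 144.1 and 307.7 CPM in endothelial-like cells.

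Within classes, the share of cells with module UMIs was then counted. Each cell was thinned to 1000 UMIs so that depth would not set the shares. Of 670 endothelial-like cells of total brain with that depth (of 753), 92.1% had at least 1 member UMI and 27.6% at least 5 (24.3 to 31.2, exact Clopper-Pearson 95%). Unthinned, those shares were 96.8% and 74.6%. Of 4173 microglia-like cells of sorted brain (of 4420), 61.2% had at least 1 (59.7 to 62.7) and 2.35% at least 5 (1.91 to 2.85). Unthinned, the microglial shares were 82.5% and 10.6%. The richest 5% of those microglia-like cells held 25.5% of the class's member UMIs at a mean of 1.14 per cell, and the richest cell had 46 of its 1000. The richest 5% held 16.7% in endothelial-like cells of total brain (mean 3.53), 24.1% in border macrophage-like cells (mean 3.34), 25.7% in T cell-like cells (mean 2.99) and 42.5% in neuron-like cells (mean 0.171). This share can be high because the mean is low, as in neuron-like cells, so it ranks no class. Shares with at least 5 member UMIs were 23.6% in border macrophage-like cells (19.4 to 28.2) and 23.3% in monocyte-like cells (18.0 to 29.4), with intervals that overlap that of the endothelial-like cells. The share in T cell-like cells was 18.3% (15.2 to 21.7), with an interval below it. Of 3754 neuron-like cells, 14.8% had at least 1 and 0 had at least 5, which allows a share of up to 0.0982%. In microglia-like cells of total brain the share with at least 5 was 2.56%, 7.07%, 4.60% and 0.613% over the suffixes. These were 3, 7, 8 and 1 cells, and the intervals of all suffixes overlap, so their order was not resolved. In choroid plexus epithelial-like cells of total brain the share was 16.9%, 16.1%, 6.49% and 0% (11, 18, 5 and 0 cells). There the interval of suffix 4 (0 to 5.06) lay below those of suffixes 1 (8.76 to 28.3) and 2 (9.81 to 24.2).

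**Figure D5:**
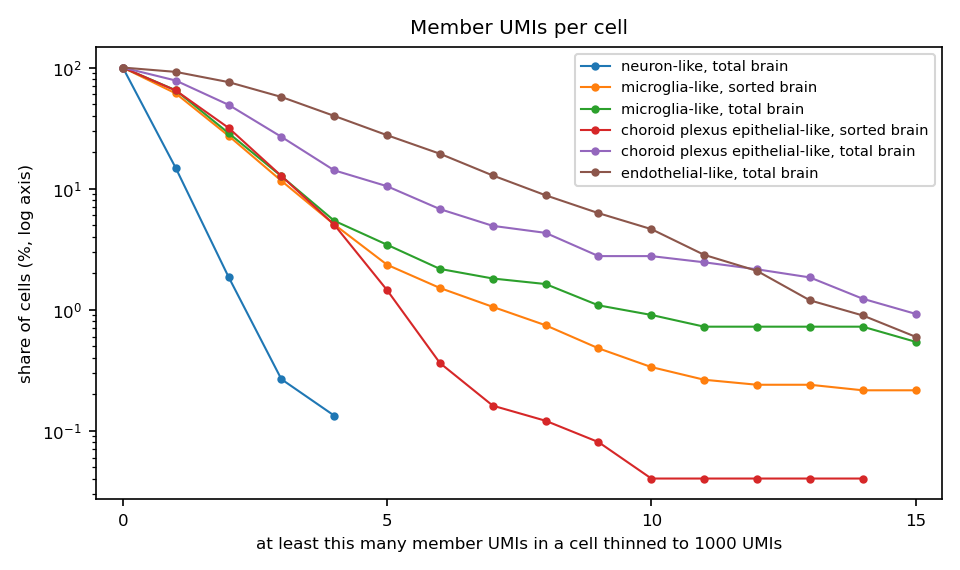
Share of cells (%, log axis) with at least the number of member UMIs on the horizontal axis, in cells thinned to 1000 UMIs, for 6 class and sample pairs. The neuron-like curve ends at 4 UMIs. At 5 UMIs the microglia-like curves are at 2.35% (sorted) and 3.44% (total) and the endothelial-like curve is at 27.6%. At 10 UMIs the microglia-like curves are at 0.335% (sorted, 14 cells) and 0.904% (total, 5 cells).

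Members with a UMI in the same cells as Isg15 were counted after thinning, over genes with a UMI in at least 10 cells of the class, beside the same count over all such genes. In microglia-like cells of sorted brain, 10.5% of the 86 cells with an Isg15 UMI also had Ifit3 (4.9 to 18.9), against 0.759% of 4087 cells without Isg15 (0.516 to 1.07). Ifi27l2a was present in 20.9% of the cells with Isg15 and 3.57% of those without, and Rtp4 in 14.0% and 1.93%. The share was higher with Isg15, with intervals apart, for 16 of 32 members (50%), against 0.956% of all genes. In T cell-like cells this held for 10 of 26 members (38.5%, against 1.16%), with Ifit1 in 32.4% of 34 cells with Isg15 (17.4 to 50.5) and 2.18% of 551 cells without. In border macrophage-like cells it held for 7 of 27 (25.9%, against 0.923%), with Usp18 in 35.5% of 31 cells with Isg15 (19.2 to 54.6) and 3.47% of 346 cells without. In microglia-like cells of total brain, on 13 cells with Isg15, it held for Irgm1, Parp14 and Trim30a of 18 members (16.7%, against 0.651%). In endothelial-like cells of total brain it held for Ifit3, Ifit3b and Rtp4 of 33 members (9.09%, against 0.452%), on 77 cells with Isg15. Monocyte-like cells gave Rtp4 alone of 12 members (8.33%, against 0.25%), on 16 cells with Isg15. Endothelial-like cells of sorted brain gave 0 of 6 (against 0.231%) and neuron-like cells 0 of 20 (against 0.709%), on 15 and 13 cells with Isg15. The number of cells with Isg15 limits which shares can have intervals apart, so these counts rank no class. These cells come from 4 suffixes that differ in level, so the shares mix differences between suffixes with those between cells.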

How the data were processed

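The authors deposited 1 matrix of raw UMI counts per sample, made with Cell Ranger 3.0.2 (sorted brain) and 3.1.0 (total brain) per the file headers, while the submitters' processing notes give 3.0.2 and mm10. The labels name 10x Genomics v3 chemistry for each sample, while their protocol text allows v2 or v3 by run. The matrices held 0 columns of other samples. The members and lists were chosen with earlier results of these data known. All 43 measured members could be named, and for each comparison up to 12 per direction that passed the rule, ranked by log2 ratio, were given values. Both samples were clustered together in Python 3.11.15 with scanpy 1.11.5 on 2000 variable genes without members or pathway genes, 30 components, 15 neighbours and Leiden resolution 1. A cluster was named when 50% or more of a marker list (3 genes or more) was raised 2-fold with 10 CPM added. It stayed unnamed when another class had at least 70% raised, a limit set after the clusters were seen. Erythroid markers were exempt from this limit. The endothelial-like cluster had 83% of them raised and kept its name. Class names are rebuilt and may differ from the study's. Doublets called by Scrublet (0.844% of sorted and 0.0747% of total kept cells, so the caller did not work in total brain) were kept. With 1 sample per group, no p-value was computed. Kept cells were 74.6% of sorted and 63.8% of total barcodes, with median UMIs of 1626 to 2583 and 1576 to 1782 over the suffixes, which limits members with few UMIs. A pathway gene is not reported here.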

Additional observations from a re-analysis of the deposited data

How the results depend on the processing

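Counts of members past the rule were within 1.5 times the reported count in 284 of 318 recalculations, and named members kept their direction and call in 1531 of 1597 (64 fell short of the rule and 2 changed sign). Summed levels moved beyond their counting interval in 110 of 478 recalculations, and log2 ratios of summed levels moved by 0.1 or more in 30 and changed sign in 3 of 139. Shares of cells with member UMIs moved in 6 of 6 recalculations at another depth. The alternatives were other cell filters, doublets removed, equal weight per suffix, each suffix left out, members allowed in the clustering, Leiden 0.5 and 2, each sample clustered alone, CPM without mitochondrial and ribosomal genes, and other pseudocounts and UMI minimums. A comparison within sorted brain cannot change when a total brain suffix is left out, nor the reverse. The totals for comparisons include such recalculations and so overstate how stable the results were. Leaving out the cytokine-led microglia-like cluster was chosen after seeing the data. Some class names were missing under some clusterings, which then gave no value. The causes below were not tested. Broad members, 1 as reported, were 3 with the stricter filter or with members allowed in the clustering, 2 with equal weight per suffix or without mitochondrial and ribosomal genes, 9 at 10 CPM, and 1 to 5 with a suffix left out (each suffix is given in the report). Restricted members, 5 as reported, were 9 (stricter filter), 2 (equal weight), 10 (Leiden 0.5), 3 (10 CPM), 11 (50 CPM) and 4 to 6 (suffix left out). A suffix left out can also take a class under the cell minimum, which changes the pairs behind the broad and restricted counts. Members higher in T cell-like cells, 9 as reported, were 9 to 17 with a suffix left out, and those lower, 3, were 6 with each sample clustered alone, 1 without the cytokine-led cluster and 2 to 3 with a suffix left out. Members lower in monocyte-like cells, 4 as reported, were 2 (stricter filter, or 50 UMIs), 1 (pseudocount 10 CPM, or without the cytokine-led cluster) and 4 to 5 (suffix left out), and those higher were 15 to 20 over all alternatives (18 to 20 with a suffix left out). Endothelial-like over microglia-like counts, 21 higher and 2 lower, were 13 higher with the looser filter, 1 lower with each sample clustered alone, and 21 to 26 and 2 to 3 with a suffix left out. Microglia-like cells of total over sorted brain, 2 higher and 0 lower, gave 1 higher with the looser or stricter filter, with each sample alone or at 50 UMIs, 0 higher with pseudocount 10, 3 lower with each sample alone, and 2 to 3 higher and 0 to 2 lower with a suffix left out (2 lower without total suffix 2). With a suffix left out, the other ranges were 23 to 27 higher and 0 to 1 lower in border macrophage-like cells, 1 to 1 and 28 to 31 in choroid plexus epithelial-like cells, and 37 to 38 and 0 to 0 for endothelial-like over neuron-like cells. Over all alternatives, members higher were 17 to 27 in border macrophage-like cells and 30 to 38 for endothelial-like over neuron-like cells. Those lower in choroid plexus epithelial-like cells were 20 to 31, and 21 without the cytokine-led cluster. Ratios that changed sign were those of Ifit3b (log2 0.68) and Iigp1 (0.095) in monocyte-like against microglia-like cells with the looser filter. The summed level of choroid plexus epithelial-like against microglia-like cells of sorted brain also did, at log2 −0.056 with equal weight, −0.18 with each sample alone and from −0.0691 (without sorted suffix 2) to 0.125 with a suffix left out. No paired analysis was possible because each group holds 1 pooled sample.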
